A study of Mus musculus with 6 samples.

Results

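Among splenic CD4 T cells, some cells held little ribosomal protein mRNA, and 10 transcripts that earlier results of these data had shown high in such cells are described here. They were chosen by their share of UMIs in cells of low against high ribosomal protein share. They are Gm26917, Gm42418, Gm16565, Malat1, Neat1, Kcnq1ot1, Gm47283, Lars2, Lncpint and 2010016I18Rik, 10 of the 32285 genes counted. The cells came from spleens of 3 naive H2-O KO and 3 naive H2-O WT mice on the C57BL6/J background, and each mouse gave 1 library of 10x Genomics 5′ scRNA-seq. H2-O is a chaperone that modulates peptide loading of MHC class II, and the KO mice lack it, while no other allele or agent was named for either genotype. The sort took CD3+ CD4+ B220- NK1.1- cells by the labels. The mice were 8 weeks old by the labels, older by the methods, and female by the methods. Below, values of a genotype are listed in the order of its replicates 1, 2 and 3.

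Ribosomal protein mRNAs are among the most abundant cytoplasmic mRNAs of a resting T cell, so their share of a cell's UMIs (tags that each mark 1 captured RNA molecule) is low where little cytoplasmic mRNA was captured. Nuclear RNAs are not part of that pool: Malat1 resides in nuclear speckles and Neat1 is the scaffold of paraspeckles. Kcnq1ot1 is the antisense RNA that silences the imprinted Kcnq1 domain, and Lncpint is a p53-induced long noncoding RNA. Lars2, in contrast, encodes the leucyl-tRNA synthetase of mitochondria. Gm26917, Gm42418, Gm16565, Gm47283 and 2010016I18Rik have no well established function.

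Several of the genes share bases with another annotated gene, and the stretches that do so are shown because they bear on which gene a read is assigned to. In the GENCODE vM21 annotation of GRCm38, Gm26917 (chr17:39843013-39846341) and Gm42418 (chr17:39846958-39848788) are long intergenic noncoding RNAs on the plus strand, on the same chromosome as H2-Oa and 5747779 and 5751724 bases from its end. All 1831 bases of Gm42418 lie inside CT010467.1, annotated as rRNA on the opposite strand, and 923 of them also lie in AY036118, again on the opposite strand. Gm16565 (chr1:165781075-165789367) overlaps the start of Cd247, the CD3 zeta chain gene, on the same strand, with a run of 206 bases in common between transcripts. Lars2 (chr9:123366927-123462666) has a run of 52 bases in common with Gm15564 on chromosome 16. Gm47283 (chrY:90784738-90816464) is annotated on the Y chromosome and has a run of 529 bases in common with Gm21887 on the X chromosome. The stretches are read from the transcripts, 5′ to 3′ on the plus strand, at chr17:39847068-39847157, chr1:165788631-165788700, chr9:123462048-123462077 and chrY:90785824-90785853, and capitals mark bases that the partner also holds.
Gm42418 with AY036118: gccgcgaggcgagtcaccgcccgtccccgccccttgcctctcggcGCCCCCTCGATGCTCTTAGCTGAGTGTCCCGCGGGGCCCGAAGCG
Gm16565 with Cd247: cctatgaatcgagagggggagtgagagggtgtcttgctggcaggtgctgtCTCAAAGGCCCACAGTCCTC
Lars2 with Gm15564: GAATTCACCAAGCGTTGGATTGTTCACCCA
Gm47283 with Gm21887: CAGGCAGGCCAGGCACACGCATCCGCAGGA

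**Figure D1:**
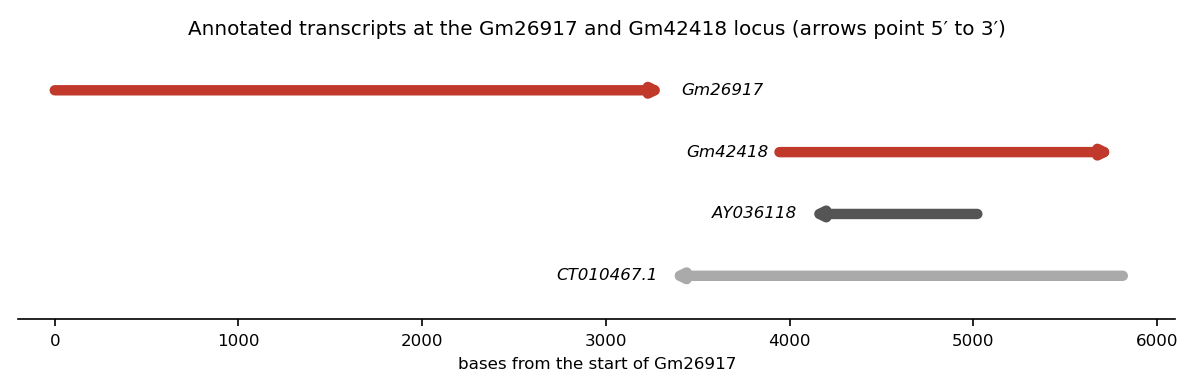
Annotated genes at the Gm26917 and Gm42418 locus, in bases from the start of Gm26917, with arrows in the direction of transcription. Gm42418 lies inside CT010467.1 and covers the 923 bases of AY036118, both on the opposite strand.

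Of the other genes, 2010016I18Rik (chr3:106481982-106485913) is antisense to Dennd2d, with a run of 284 transcript bases in common. Kcnq1ot1 (chr7:143203458-143296549), Lncpint (chr6:31082565-31220488), Malat1 (chr19:5795690-5802672) and Neat1 (chr19:5824708-5845478) are on the minus strand. Whether the counting used strand is not given in the sources used here, so it is not known here whether reads of a gene and of its antisense partner were kept apart.

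RefSeq promoters (GRCm38.p6, from 250 bases before to 50 bases after the start) were matched for 5 of the 10 genes. Those of Malat1 (chr19:5802623-5802922), Kcnq1ot1 (chr7:143296498-143296797), Lncpint (chr6:31218425-31218724) and 2010016I18Rik (chr3:106485864-106486163), all on the minus strand, are shown because these genes had like patterns over the sums of library and bin. Capitals mark matches on either strand to the 5 motifs searched. The first was CCAAT, bound by NF-Y. A further motif was TGACG, the core of the cyclic AMP response element. The E-box was searched as CACGTG. For the GC box the letters were GGGCGG. For the TATA box they were TATAAA.
Malat1: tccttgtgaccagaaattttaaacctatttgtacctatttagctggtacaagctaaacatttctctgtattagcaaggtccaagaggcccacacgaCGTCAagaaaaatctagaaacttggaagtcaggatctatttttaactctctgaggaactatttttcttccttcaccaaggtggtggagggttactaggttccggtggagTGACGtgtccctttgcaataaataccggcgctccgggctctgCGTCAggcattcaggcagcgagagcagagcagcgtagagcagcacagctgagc
Kcnq1ot1: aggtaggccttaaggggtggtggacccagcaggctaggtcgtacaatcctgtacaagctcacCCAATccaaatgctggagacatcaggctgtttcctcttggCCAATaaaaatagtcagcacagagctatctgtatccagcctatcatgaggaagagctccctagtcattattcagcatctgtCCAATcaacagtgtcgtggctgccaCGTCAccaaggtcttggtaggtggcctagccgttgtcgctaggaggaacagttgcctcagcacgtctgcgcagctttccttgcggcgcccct
Lncpint: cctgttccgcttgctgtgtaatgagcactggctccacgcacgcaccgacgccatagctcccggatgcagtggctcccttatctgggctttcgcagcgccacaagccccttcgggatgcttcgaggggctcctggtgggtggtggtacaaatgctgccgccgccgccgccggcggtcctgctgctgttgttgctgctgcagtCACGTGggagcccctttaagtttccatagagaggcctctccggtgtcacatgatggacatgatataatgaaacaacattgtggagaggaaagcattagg
2010016I18Rik: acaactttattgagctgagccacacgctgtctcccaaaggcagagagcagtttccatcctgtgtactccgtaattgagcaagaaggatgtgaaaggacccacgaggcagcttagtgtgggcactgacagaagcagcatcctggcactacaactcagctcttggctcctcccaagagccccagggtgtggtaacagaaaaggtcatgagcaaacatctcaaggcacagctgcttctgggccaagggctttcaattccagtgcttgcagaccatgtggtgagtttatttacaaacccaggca

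The Malat1 promoter held 3 matches to TGACG, where 1.04% of 32841 promoters held at least as many and 20.8% held at least 1. The Kcnq1ot1 promoter held 3 matches to CCAAT, where 3.37% held at least as many and 37.4% at least 1, and it held 1 match to TGACG. The Lncpint promoter held 1 CACGTG, found in 7.15% of promoters. No match to GGGCGG (35.7% of promoters) or TATAAA (13.6%) was in these 4 windows, and none of the 5 motifs was in that of 2010016I18Rik. The matches describe letters and are no measured sites.

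Kept cells had 200 genes or more, no more than 12000 UMIs and a mitochondrial share of 5% or less. They numbered 29738, with 7940665 to 37627804 UMIs a library. They were placed in 4 bins by the share of ribosomal protein UMIs, 0-5%, 5-10%, 10-20% and over 20%. H2-Oa, the gene of the alpha chain, stood at 4.54, 3.53 and 3.79 CPM (UMIs of a gene scaled to a fixed total of UMIs in the summed cells) in the H2-O KO mice and 5.29, 6.29 and 8.42 CPM in the H2-O WT mice. These rest on 42 to 171 UMIs a library, and where the gene was disrupted is not given in the sources used here, so this is a weak check of the labels. The T cell markers Cd3d, Cd3e, Cd3g, Cd4 and Trac summed to 2367 to 2863 CPM, against 13.5 to 40.3 CPM for the B cell markers Ms4a1, Cd79a and Cd79b. Pairs of libraries shared 21 to 99 cell barcodes.

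The libraries differed in how many cells fell in the low bins. The 0-5% bin held 175, 159 and 354 cells of the H2-O KO mice against 740, 823 and 198 of the H2-O WT mice, and the 5-10% bin 89, 151 and 681 against 468, 202 and 2047. Cells of the 0-5% bin had median totals of 1448 to 2074 UMIs and mean mitochondrial shares of 2.98% to 3.78%, and cells over 20% had 4269 to 5718 UMIs and 1.90% to 2.13%. The mean ribosomal share inside the lowest bin was 3.12%, 3.16% and 4.06% in the H2-O KO mice and 3.87%, 3.49% and 4.44% in the H2-O WT mice.

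Together the 10 genes took 4.38%, 4.86% and 10.8% of the UMIs of cells with 0-5% in the H2-O KO mice and 12.4%, 7.66% and 11.9% in the H2-O WT mice. Over 20% they took 2.16%, 2.27% and 4.07% against 3.73%, 2.62% and 4.71%. H2-O KO replicate 3 lay among the H2-O WT libraries in each of these bins, and the genotypes overlapped. Most of these UMIs were of Gm42418 and Malat1. With 0-5% in the H2-O KO mice Gm42418 stood at 6461, 3153 and 67617 CPM and Malat1 at 34365, 42154 and 33653 CPM, so the place of replicate 3 there followed Gm42418.

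Since the genes were chosen for their levels in these bins, the values that follow describe them and carry no test. Gm16565 stood highest in cells with 0-5% relative to cells over 20%, by 3.69 ± 0.25 on the log2 scale of CPM (mean and SD, n = 6 libraries), first among 3917 genes ranked. Ranked genes had a mean of at least 50 CPM over the sums of library and bin, and UMIs in both bins of every library. A gene can reach 50 CPM through the low bins alone. Gm16565 did so, with means of 255 and 186 CPM below 10% and 31.2 and 19.7 CPM above. The places are thus no support for the choice of genes. Gm26917 followed with 3.35 ± 0.78 (place 3), 2010016I18Rik with 3.22 ± 0.20 (place 4), Lncpint with 3.08 ± 0.18 (place 9) and Kcnq1ot1 with 3.02 ± 0.24 (place 10). Neat1 and Malat1 stood 2.57 ± 0.19 and 2.47 ± 0.22 above. These 7 were above 0 in 6 of 6 libraries, while over all 3917 genes the median was 0.89 and 73.3% were above 0.

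Within these bins of kept cells, the other 3 genes did not bear out the description as transcripts high in cells of low ribosomal share. The same log2 ratio was 0.35 ± 0.66 for Gm47283 (below the CPM limit, so not ranked), 0.047 ± 1.29 for Gm42418 (place 2837) and -0.97 ± 1.18 for Lars2 (place 3380). In UMIs per cell, with no scaling to a total, these 3 were lower with 0-5% than over 20% in 6 of 6 libraries. The first 7 were higher in 6 of 6 libraries in UMIs per cell too, on average 4.58-fold for Gm16565, 3.63-fold for Gm26917, 3.32-fold for 2010016I18Rik, 3.01-fold for Lncpint, 2.89-fold for Kcnq1ot1, 2.10-fold for Neat1 and 1.97-fold for Malat1. Cells of the lowest bin thus held more UMIs of these 7 RNAs while holding fewer UMIs in all.

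**Figure D2:**
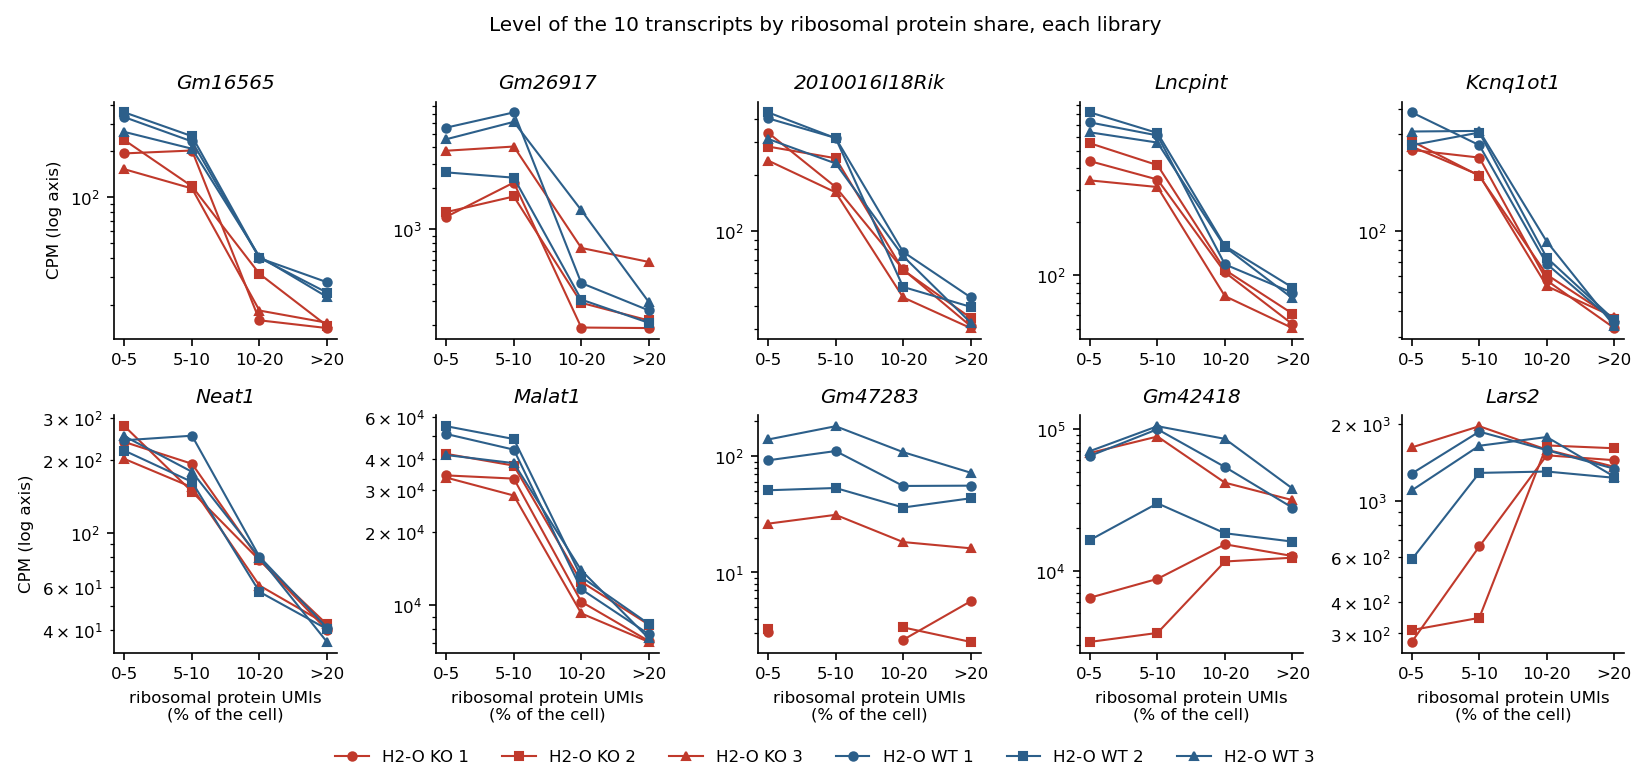
Level of each gene in CPM (log axis) by the share of ribosomal protein UMIs in the cell, with 1 line for each of the 3 H2-O KO (red) and 3 H2-O WT (blue) libraries and a marker shape for the replicate. Gm47283 had 0 UMIs in the 5-10% bin of H2-O KO replicates 1 and 2, which a log axis cannot show, and 7 genes stand higher with 0-5% than over 20% in every library.

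**Figure D3:**
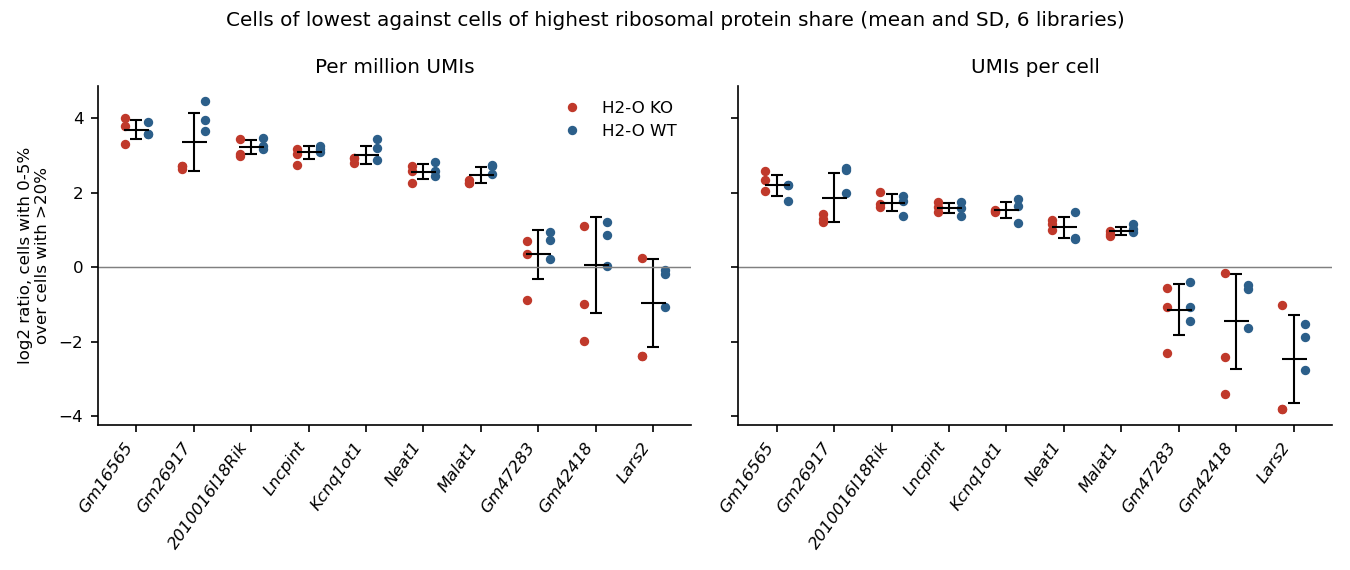
Log2 ratio of cells with 0-5% to cells with over 20% ribosomal protein UMIs, in CPM at left and in UMIs per cell at right, with points for libraries and bars for the mean and SD of 6 libraries. In UMIs per cell Gm47283, Gm42418 and Lars2 lie below 0 in all 6 libraries and the other 7 genes above.

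Malat1 held 64.3, 81.4 and 61.4 UMIs per cell with 0-5% in the H2-O KO mice and 76.7, 99.2 and 92.0 in the H2-O WT mice. Over 20% it held 35.8, 43.6 and 31.1 against 39.9, 48.6 and 41.2 UMIs per cell. The lowest library of the low bin lay above the highest library of the high bin.
The step lay near 10%. Malat1 stood at 33653 to 54812 CPM with 0-5%, 28387 to 48539 CPM with 5-10%, 9270 to 13956 CPM with 10-20% and 7073 to 8392 CPM over 20%. Lncpint stood at 341 to 820.3, 313 to 629, 76.3 to 146 and 50.5 to 85.3 CPM in the same order. For both genes the bins below 10% overlapped each other, and no library of them reached down to the 10-20% bin.

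Gm42418 and Lars2 split the libraries. Gm42418 stood at 6461, 3153 and 67617 CPM with 0-5% in the H2-O KO mice and 64553, 16470 and 69739 CPM in the H2-O WT mice, and over 20% at 12705, 12363 and 31472 against 27844, 16057 and 37991 CPM. H2-O KO replicate 3 and H2-O WT replicates 1 and 3 were high in each bin, and these libraries also kept the fewest of their called cells (64.5% to 68.9%, against 85.4% to 93.2%). Only H2-O KO replicates 1 and 2 stood lower with 0-5% than over 20%.

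Lars2 stood at 278, 309 and 1621 CPM with 0-5% in the H2-O KO mice and 1279, 587 and 1098 CPM in the H2-O WT mice, with the same 3 libraries high, and at 1231 to 1609 CPM over 20%. The 15 other mitochondrial aminoacyl-tRNA synthetase genes, which charge tRNAs for the same translation system, were above 0 in the ratio of the lowest to the highest bin, from 0.049 (Sars2) to 1.83 (Mars2) with a median of 1.12 on the log2 scale. Over the 24 sums of library and bin, AY036118 was the gene of most like pattern to Gm42418 (Pearson r = 0.875) and to Lars2 (r = 0.838). Gm42418 and Lars2 had r = 0.757 with each other. Gm15564, which shares a run with Lars2, had 0 to 4 UMIs a library. Lars2 was compared in sequence with Gm15564 only, so bases that it may share with other RNAs, rRNA among them, were not searched.

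Partner genes differed from Gm16565 and 2010016I18Rik. Cd247 stood at 284 to 434 CPM with 0-5% and 317 to 338 CPM over 20%, where Gm16565 stood at 152 to 356 and 14.1 to 27.9 CPM. Dennd2d stood at 198 to 235 and 102 to 136 CPM, where 2010016I18Rik stood at 238 to 432 and 30.3 to 44.3 CPM. Kcnq1, the gene that Kcnq1ot1 runs antisense to, had 0 UMIs in kept cells of each library.

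Other gene groups were read on the same ratio of the lowest to the highest bin. Of 15 other nuclear long noncoding RNAs listed, 8 had UMIs in both bins of all libraries. Among these 8, 7 were above 0 (median 1.94), up to 2.77 for Xist, which coats the inactive X chromosome. The sums with 0-5% held 306994 to 1489779 UMIs a library, against 5439479 to 34501313 over 20%. Asking for UMIs in both bins thus favours genes high with 0-5%, and the count and median are not free of that. All 18 detained intron and splicing mRNAs were above 0 (median 1.38), up to 2.23 for Nktr, as were 8 of 9 mRNAs of speckle and paraspeckle proteins (median 1.47) and all 13 mitochondrially encoded mRNAs (median 0.77). Of 12 snoRNA host RNAs, 4 were above 0 (median -0.31). None of 10 abundant cytoplasmic mRNAs was above 0 (median -1.75), with -1.15 for Actb and -3.06 for Tmsb10. The median of 0.89 over all ranked genes exceeded those of the mitochondrial, snoRNA host and cytoplasmic lists.

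Among 3919 genes with a mean of at least 50 CPM, those of most like pattern over the 24 sums were Tnrc6b for Malat1 (r = 0.994), Dock10 for Lncpint (0.994), Tgoln1 for 2010016I18Rik (0.991), Zfp638 for Kcnq1ot1 (0.990), Ube3a for Gm16565 (0.990), Ppp1r10 for Neat1 (0.983) and Kmt2d for Gm26917 (0.930). These sums share libraries, depth and the bins that chose the members. Across cells thinned to 1000 UMIs the correlations were weak, with a median Spearman rho of 0.075 over pairs of the 10 genes. Gm26917 and Malat1 had the highest, 0.399, with 0.087 to 0.696 over libraries.

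The genes also moved with the mitochondrial share of a cell, read in cells called before the mitochondrial limit. Malat1 stood at 8185 ± 1011 CPM (SD, n = 6) where 0-2% of UMIs were mitochondrial, 40610 ± 7633 CPM at 5-10% and 35471 ± 5177 CPM over 10%. Gm26917 stood at 364 ± 207, 6113 ± 4258 and 11734 ± 9577 CPM, and Gm16565 at 23.8 ± 10.6, 208 ± 83.9 and 113 ± 76.4 CPM in these bins. Lars2 stood at 1430 ± 138, 1457 ± 1035 and 3000 ± 968 CPM. Gm42418 stood at 27385 ± 15034, 60248 ± 57535 and 87219 ± 72104 CPM, and Gm47283 at 33.5 ± 30.2, 74.1 ± 72.5 and 109 ± 96.6 CPM. The means of Lars2, Gm42418 and Gm47283 were thus highest over 10%, among cells that the mitochondrial limit of 5% left out of the ribosomal bins. The mean ribosomal share was 27.5%, 6.29% and 7.18% in the same bins, so it was lower in both bins of high mitochondrial share than at 0-2%. Of the 1930 cells over 10%, 1418 were from H2-O KO replicate 3.

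**Figure D4:**
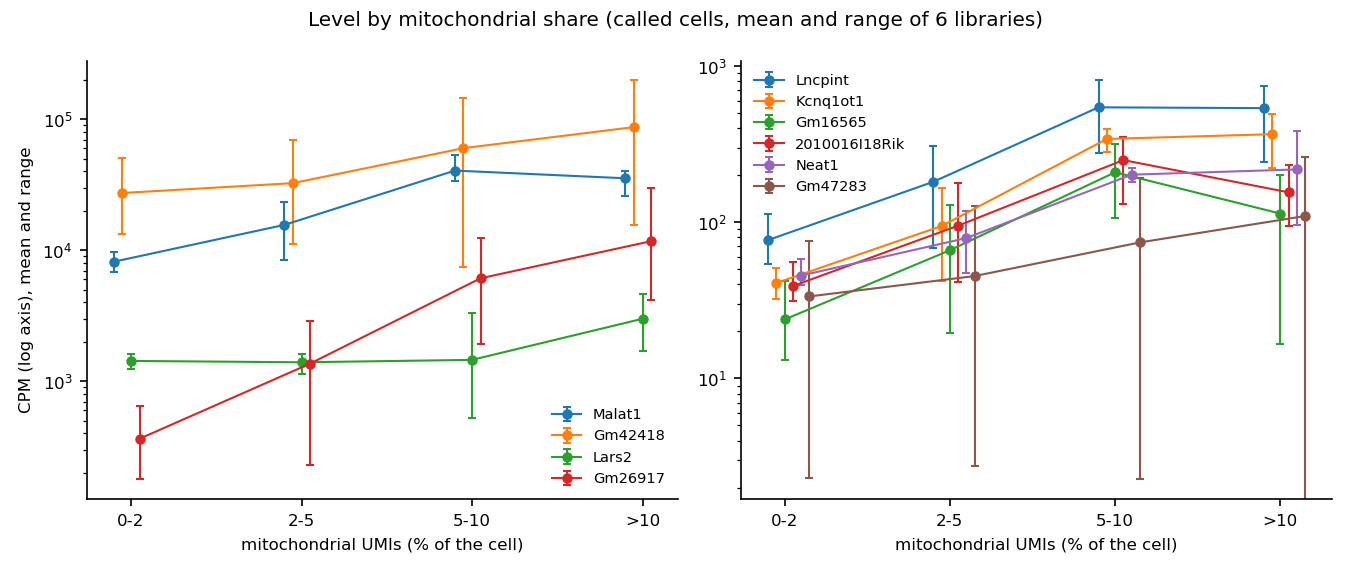
Mean CPM (log axis) of each gene by the share of mitochondrial UMIs in a cell, with bars from the lowest to the highest of 6 libraries. Malat1 has a mean of 8185 CPM at 0-2% and 40610 CPM at 5-10%, and the bar of Gm47283 over 10% reaches 0, which a log axis cannot show.

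Sets of cells cut by marker UMIs are ranges and not types. Over 20%, Malat1 stood at 7534 ± 567 CPM in cells with naive markers and 8031 ± 807 CPM in cells with a UMI of Foxp3, the regulatory T cell factor (SD, n = 6 for each). With 10-20% it stood at 15350 ± 3111 and 9424 ± 1424 CPM in these sets, whose ranges over libraries met. Cells with a Foxp3 UMI made up 28.9%, 33.3% and 26.6% of the 10-20% bin in the H2-O KO mice and 18.2%, 26.7% and 12.2% in the H2-O WT mice. Over 20% they made up 5.78% to 8.93%. With 10-20%, Gm16565, Lncpint, Kcnq1ot1 and Gm47283 had means of 17.3, 108, 56.4 and 29.1 CPM with a Foxp3 UMI. With naive markers these were 53.1, 154, 90.0 and 42.7 CPM. The mean of Lars2 stood the other way (1492 ± 278 against 1375 ± 314 CPM). For Gm47283 the SD was 24.4 CPM with a Foxp3 UMI and 45.5 CPM with naive markers. For each of these genes the ranges of the 2 sets over libraries met. The sets were not tested against each other, nor was their part in genotype differences with 10-20%.

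The next comparison asked whether the genes differed by genotype, in all kept cells and among cells of like ribosomal share. In all kept cells 7 of the 10 were lower in H2-O KO by edgeR's quasi-likelihood test on UMIs summed per library (adjusted p under 0.05), where 34.9% of 12481 genes were called, 19% lower and 15.9% higher. Cells over 20% made up 88.1%, 82.9% and 68.1% of kept cells in the H2-O KO mice and 41.2%, 72.6% and 34.3% in the H2-O WT mice. The genes were chosen by these bins, so differences in all kept cells cannot be told apart from the shares of cells in the bins. The libraries gave unequal numbers of cells to the low bins. Counts of members within bins, given next, are thus not free of that choice either. The count of members called lower was 6 with 0-5% (15.9% of all genes called, 6.58% lower and 9.35% higher), 6 with 5-10% (9.65%, 4.25% and 5.4%), 4 with 10-20% (3.72%, 2.4% and 1.32%) and 3 over 20% (7.04%, 5.07% and 1.98%), and no member was called higher. Median log2 fold changes of the 10 were -1.0 in all kept cells and -0.69, -0.77, -0.54 and -0.18 from the lowest bin to the highest, where medians of all genes were within 0.026 of 0.
Without H2-O WT replicate 1 the count with 0-5% was 3. With 10-20% it was 1 without H2-O KO replicate 1 and 2 without H2-O KO replicate 3 or H2-O WT replicate 2. Without H2-O WT replicate 3 it was 0 there. Calls among all genes fell too, from 1157 to 521 in the first of these fits and from 358 to 61 in the last. The share of all calls that were higher in H2-O KO moved with the scaling. With library totals in place of TMM factors it went from 58.7% to 75.4% with 0-5%, 56.0% to 82.6% with 5-10%, 35.5% to 46.8% with 10-20%, 28.1% to 42.5% over 20% and 45.5% to 34.2% in all kept cells, and by DESeq2 it was 36.8% with 5-10% and 47.3% with 10-20%.

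**Figure D5:**
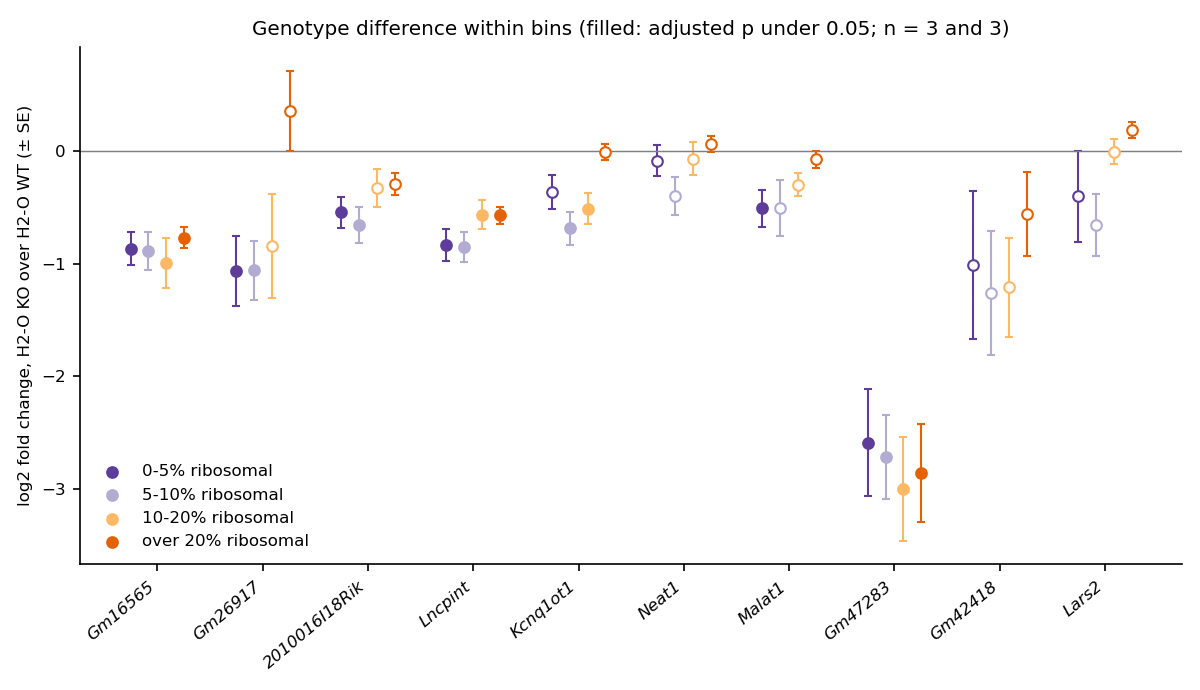
Log2 fold change of H2-O KO over H2-O WT for each gene in each bin of ribosomal protein share, with the SE (3 libraries a genotype) and filled points where the edgeR adjusted p was under 0.05. Gm47283, Gm16565 and Lncpint are filled and below 0 in all 4 bins.

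Of the 10, Gm47283 had the largest differences. It stood at 3.05, 3.26 and 26.3 CPM with 0-5% in the H2-O KO mice, from 1, 1 and 17 UMIs, and 92.4, 51.0 and 139.6 CPM in the H2-O WT mice, from 103, 76 and 61 UMIs. Over 20% it stood at 5.65, 2.53 and 16.2 against 55.9, 43.5 and 72.3 CPM. The genotypes did not overlap in these bins, with H2-O KO replicate 3 between the other H2-O KO libraries and H2-O WT.
By edgeR its log2 fold change was -2.59 ± 0.47 (adjusted p = 0.000872) with 0-5%, -2.72 ± 0.37 (adjusted p = 7.61e-06) with 5-10%, -3.0 ± 0.46 (adjusted p = 0.00192) with 10-20% and -2.86 ± 0.44 (adjusted p = 0.00741) over 20%. Without H2-O KO replicate 3 it was -4.78 with 0-5% and -4.70 with 10-20%, and without H2-O WT replicate 3 the call with 10-20% was lost (adjusted p = 0.0576). Gm21887, its relative on the X chromosome, had r = 0.959 with it over the 24 sums. In all kept cells Gm21887 stood at 1.51, 0.642 and 36.1 CPM in the H2-O KO mice and 107, 115 and 190.1 CPM in the H2-O WT mice. Gm47283 stood at 5.39, 2.57 and 17.5 against 65.2, 43.8 and 104 CPM in these cells. The Y-linked genes Ddx3y, Uty, Eif2s3y and Kdm5d together had 0 to 3 UMIs a library.

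Gm16565 stood at 192, 235 and 152 CPM with 0-5% in the H2-O KO mice and 331, 356 and 265 CPM in the H2-O WT mice. Over 20% it stood at 14.1, 14.6 and 15.2 against 27.9, 23.9 and 22.4 CPM. The genotypes did not overlap in either bin.
Its log2 fold change was -0.87 ± 0.15 (adjusted p = 0.000416) with 0-5%, -0.89 ± 0.17 (adjusted p = 0.000624) with 5-10%, -0.99 ± 0.22 (adjusted p = 0.0222) with 10-20% and -0.77 ± 0.094 (adjusted p = 0.00206) over 20% by edgeR. In all kept cells it was -1.68 ± 0.18 (adjusted p = 0.00106). The call with 10-20% was lost without H2-O KO replicate 1 or 3 or H2-O WT replicate 2 or 3, with adjusted p of 0.111, 0.0761, 0.0568 and 0.141. Cd247, with which it shares bases, stood in the other order, at 434, 397 and 373 CPM with 0-5% in the H2-O KO mice and 284, 308 and 288 CPM in the H2-O WT mice.

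Lncpint stood at 437, 550.5 and 341 CPM with 0-5% in the H2-O KO mice and 720.4, 820.3 and 634 CPM in the H2-O WT mice. Over 20% it stood at 53.2, 60.9 and 50.5 against 79.8, 85.3 and 74.3 CPM. No H2-O KO library reached an H2-O WT library in these bins.
The log2 fold change was -0.83 ± 0.14 (adjusted p = 0.000503) with 0-5%, -0.85 ± 0.13 (adjusted p = 6.78e-05) with 5-10%, -0.57 ± 0.13 (adjusted p = 0.0232) with 10-20% and -0.57 ± 0.078 (adjusted p = 0.00392) over 20% by edgeR. The call with 10-20% was lost without the same 4 libraries as for Gm16565, with adjusted p of 0.0675, 0.0781, 0.0673 and 0.166.

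2010016I18Rik stood at 336, 283 and 238 CPM with 0-5% in the H2-O KO mice and 401, 432 and 311 CPM in the H2-O WT mice, and H2-O KO replicate 1 exceeded H2-O WT replicate 3. By edgeR its log2 fold change was -0.54 ± 0.14 (adjusted p = 0.0116) there and -0.65 ± 0.16 (adjusted p = 0.00828) with 5-10%. With 10-20% and over 20% it was -0.32 ± 0.17 (adjusted p = 0.283) and -0.29 ± 0.098 (adjusted p = 0.0968). The call with 0-5% was lost without H2-O KO replicate 3 or H2-O WT replicate 1 or 2 (adjusted p = 0.0719, 0.0786 and 0.0554), and that with 5-10% without H2-O KO replicate 3 or H2-O WT replicate 1 (0.130 and 0.0804).

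Kcnq1ot1 stood at 229.6, 187 and 188 CPM with 5-10% in the H2-O KO mice and 264, 305 and 311 CPM in the H2-O WT mice. Over 20% it stood at 33.0, 36.6 and 37.4 against 35.5, 36.2 and 33.8 CPM. The genotypes were apart in the first of these bins and mixed in the second.
Its log2 fold change was -0.36 ± 0.15 (adjusted p = 0.114) with 0-5%, -0.69 ± 0.15 (adjusted p = 0.00222) with 5-10%, -0.51 ± 0.14 (adjusted p = 0.0459) with 10-20% and -0.0072 ± 0.074 (adjusted p = 0.972) over 20% by edgeR. The call with 5-10% was lost with a mitochondrial limit of 10% (adjusted p = 0.229). That with 10-20% was lost without H2-O KO replicate 1, 2 or 3 or H2-O WT replicate 2 or 3, with adjusted p from 0.0605 to 0.318.

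Malat1 stood at 34365, 42154 and 33653 CPM with 0-5% in the H2-O KO mice and 50907, 54812 and 41697 CPM in the H2-O WT mice, with H2-O KO replicate 2 above H2-O WT replicate 3. Over 20% it stood at 7130, 8334 and 7073 against 7611, 8392 and 7315 CPM, and the genotypes were mixed. The log2 fold change was -0.51 ± 0.17 (adjusted p = 0.0399) with 0-5% and -0.070 ± 0.074 (adjusted p = 0.593) over 20% by edgeR. The call with 0-5% was lost without TMM (adjusted p = 0.129) and without H2-O KO replicate 1 or 3 or H2-O WT replicate 1 or 2 (0.203, 0.0646, 0.0684 and 0.121).

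Gm26917 stood at 1237, 1339 and 3769 CPM with 0-5% in the H2-O KO mice and 5566, 2616 and 4577 CPM in the H2-O WT mice. Over 20% it stood at 189, 215 and 577 against 255, 207 and 294 CPM. H2-O KO replicate 3 exceeded H2-O WT replicate 2 in the first of these bins and all H2-O WT libraries in the second.
The log2 fold change was -1.06 ± 0.31 (adjusted p = 0.0230) with 0-5%, -1.06 ± 0.26 (adjusted p = 0.00896) with 5-10% and 0.36 ± 0.36 (adjusted p = 0.565) over 20% by edgeR, and without H2-O KO replicate 3 it was -1.86, -1.60 and -0.34 in the same bins, with the first pair called. The calls in both low bins were lost by DESeq2 (adjusted p = 0.396 and 0.164), with a mitochondrial limit of 10%, and without H2-O KO replicate 1 or 2 or H2-O WT replicate 1 or 3. With 0-5% the adjusted p without those libraries ran from 0.0531 to 0.152.

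Gm42418, Lars2 and Neat1 did not pass the test within any bin in the fit described above. Gm42418 had a log2 fold change of -1.01 ± 0.66 (adjusted p = 0.322) with 0-5%, and of -3.53 (adjusted p = 2.95e-06) without H2-O KO replicate 3. For Lars2 these were -0.40 ± 0.40 (adjusted p = 0.552) and -1.87 (2.24e-05). With all 6 libraries and no low-count filter both were called with 0-5%, Gm42418 at -1.05 (adjusted p = 1.76e-07 by edgeR) and Lars2 at -0.46 (0.0131). The genotypes overlapped for both genes there, and the fold changes were close to those with the filter. These 2 calls thus rest on the spread that the fit assigned and not on a separation of the mice.
Neat1 stood at 238, 277 and 203 CPM with 0-5% in the H2-O KO mice and 242, 219 and 252 CPM in the H2-O WT mice, with the genotypes mixed and a log2 fold change of -0.085 ± 0.14 (adjusted p = 0.735). In all kept cells it was -0.49 ± 0.14 (adjusted p = 0.0223), a call lost without any of H2-O KO replicates 1 and 2 and H2-O WT replicates 1 and 3 (adjusted p from 0.0584 to 0.0992).

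Whether the genotype difference itself varied between bins was tested across 24 sums with the library as a term. Of 10071 genes 4.67% were called, and of the 10 described here 4 were. The genes were chosen by their ratio of low to high bins, which this test compares between the genotypes. The count of members is thus not free of that choice. The log2 difference with 0-5% less that over 20% was -1.50 ± 0.31 for Gm26917 (adjusted p = 0.00535), -0.46 ± 0.16 for Kcnq1ot1 (adjusted p = 0.0100), -0.55 ± 0.14 for Malat1 (adjusted p = 0.0280) and -1.54 ± 0.47 for Gm42418 (adjusted p = 0.0354) by edgeR's F test over the terms of all 3 lower bins. For the 0-5% term alone the adjusted p was 0.00205, 0.0709, 0.0144 and 0.0396 in the same order, so that of Kcnq1ot1 did not pass, while its 5-10% term did (-0.79 ± 0.17, adjusted p = 0.0105 by edgeR). The difference with 0-5% less that over 20% was -0.39 ± 0.13 for Lncpint (adjusted p = 0.0872), -0.23 ± 0.18 for Gm16565 (adjusted p = 0.651) and -0.28 ± 0.45 for Gm47283 (adjusted p = 0.788), which the F test did not call. Of the 4 called, only Gm26917 held under every alternative tried for this test. DESeq2, a denominator without ribosomal genes and the replicate number as a block were not tried for it.
With a mitochondrial limit of 10% the other 3 were lost, and without TMM those of Malat1 and Gm42418. That of Gm42418 was also lost without H2-O KO replicate 1 or 2 or H2-O WT replicate 1 or 3, that of Malat1 without H2-O KO replicate 1 or 2 or H2-O WT replicate 1 or 2, and that of Kcnq1ot1 without H2-O KO replicate 2 or 3 or H2-O WT replicate 3. The count of members was 2 without H2-O KO replicate 1 or H2-O WT replicate 1 and 1 without H2-O KO replicate 2. Calls among all genes fell as well, to between 183 and 447 with a library left out, against 470.

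Other groups of genes showed the setting with 0-5%, where 6.58% of all genes were lower and 9.35% higher. Of 18 detained intron and splicing mRNAs 11 were lower in H2-O KO (median log2 fold change -0.41), among them Luc7l3, a U1-associated splicing factor, at 153, 134 and 138 CPM in the H2-O KO mice against 231, 261 and 224 CPM in the H2-O WT mice (-0.84 ± 0.14, adjusted p = 0.000305 by edgeR). Of 9 mRNAs of speckle and paraspeckle proteins 4 were lower (median -0.49), among them Sfpq, which binds Neat1 (-0.76 ± 0.13, adjusted p = 0.000406 by edgeR). Of 6 tested nuclear long noncoding RNAs 1 was lower, Xist, at 874, 1150 and 1053 CPM in the H2-O KO mice against 1990, 1567 and 2023 CPM in the H2-O WT mice (-0.94 ± 0.14, adjusted p = 0.000145 by edgeR). Of 13 mitochondrially encoded mRNAs 6 were lower (median -0.36).
The abundant cytoplasmic mRNAs stood the other way, with 8 of 10 higher in H2-O KO (median 0.52). Actb, encoding beta-actin, stood at 4210, 4310 and 5333 CPM in the H2-O KO mice against 1745, 2051 and 2410 CPM in the H2-O WT mice (1.08 ± 0.15, adjusted p = 4.89e-05 by edgeR). Of 10 tested snoRNA host RNAs 1 was higher, Snhg3 (0.78 ± 0.22, adjusted p = 0.0218 by edgeR), and 1 lower, Gas5 (-0.44 ± 0.13, adjusted p = 0.0196 by edgeR), the latter named after its values were seen. Over 20%, where 5.07% of all genes were lower, 3 of the 18 detained intron and splicing mRNAs and 2 of the 9 speckle and paraspeckle mRNAs were lower in H2-O KO.

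Marker sums moved with genotype in the lowest bin. T cell markers stood at 1925 to 2538 CPM with 0-5% in the H2-O KO mice and 1002 to 1239 CPM in the H2-O WT mice, and at 2688 to 2799 and 2615 to 2648 CPM over 20%. These B cell markers stood at 16.3 to 58.0 CPM with 0-5% in the H2-O KO mice and 0 to 7.38 CPM in the H2-O WT mice, from at most 19 UMIs. The part of these sums, and of the ribosomal share within the bin, in the genotype differences was not tested. In summed cells, more RNA of a gene per cell and more cells with it cannot be told apart.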

How the data were processed

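Splenic CD4 T cells of 6 mice, 3 a genotype, were analysed from the matrices of UMI counts that the authors deposited, 1 per mouse. Per the submitters' processing notes the counts were made with Cell Ranger 6.1.2 on mm10, and they were not normalized. Strand settings are not given in the sources used here. Kept cells had 200 genes or more, no more than 12000 UMIs and a mitochondrial share of 5% or less, and no doublet caller was run. Ribosomal protein (97 genes) and mitochondrial (13 genes) shares were computed per cell from raw counts. The 97 genes were those with symbols that start with Rps or Rpl and then a digit. They were picked by symbol and not by function. Ribosomal protein UMIs are part of the total behind CPM, so a change in their share moves the CPM of every other gene.

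Counts were summed per library, and per library and bin, and tested with edgeR 4.0.16 in R 4.3.3 (TMM, filterByExpr, quasi-likelihood F test, Benjamini-Hochberg over all genes tested, 0.05). Each SE is the size of the log2 fold change divided by the square root of F. The test of the difference between bins had library and bin as terms. DESeq2 1.42.0, no low-count filter, library totals without TMM, a denominator without ribosomal, mitochondrial and 3 member genes, a mitochondrial limit of 10%, at least 1000 UMIs a cell, other-lineage cells left out, the replicate number as a block and each library left out were tried as alternatives. For the test of the difference between bins, DESeq2, the changed denominator and the block were not run. The fits were also run on simulated counts with the same spread for every gene and no difference in quality between libraries. The data are unlike that, so the run is no check of the calls reported here.

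The members and lists were chosen with earlier results of these data known. All 10 members are named. The rule also named the highest and lowest gene of each list and the 2 genes most like each member, and the text gives only some of these, picked with their values known. The p-values come from fits to 3 mice a genotype, with 1 library a mouse. They depend on the spread that a fit assigns to a gene. For Gm42418 with 0-5% ribosomal protein UMIs they changed with the low-count filter at a like fold change. Intervals of counting error are not given, since libraries are the replicates. One item of a marker list is not reported here, and the sums of that list leave it out.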

Additional observations from a re-analysis of the deposited data

Results flagged for a closer look

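For 4 of the genes the genotype difference (H2-O KO less H2-O WT) itself varied between bins by the edgeR test of the genotype by bin terms. The log2 difference with 0-5% ribosomal protein UMIs less that over 20% was -1.50 for Gm26917, -1.54 for Gm42418, -0.55 for Malat1 and -0.46 for Kcnq1ot1. For Kcnq1ot1 the 0-5% term did not pass on its own (adjusted p = 0.0709 by edgeR). Only the call of Gm26917 held under every alternative tried for this test. Those of Gm42418, Malat1 and Kcnq1ot1 were lost with a mitochondrial limit of 10%. The genes were chosen by their levels in these bins, so the count of calls is not free of that choice. With 5-10% less over 20% the difference was -0.79 for Kcnq1ot1 and -1.86 for Gm42418, both further from 0 than with 0-5%, and -1.34 for Gm26917 and -0.54 for Malat1.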

How the results depend on the processing

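Counts of genes called moved by over 1.5 times under several alternatives, and the cause was not tested. The numbers of genes with an adjusted p also differed, so the counts are not on a like footing. With 0-5% ribosomal protein UMIs DESeq2 called 505 of 6401 such genes, where edgeR called 1157 of 7262. With 5-10% DESeq2 called 304 of 1390. A mitochondrial limit of 10% gave 224 of 7801 there, where edgeR called 659 of 6829. With 10-20%, 759 of 16964 genes were called with no low-count filter. At least 1000 UMIs a cell gave 233 of 9561 there, where 358 of 9627 were called. DESeq2 and at least 1000 UMIs each left 2 members called with 10-20% in place of 4. The test of the difference between bins called 765 genes without TMM against 470, and called 2 members without TMM and 1 with a mitochondrial limit of 10%, in place of 4. The median log2 ratio of the members between the lowest and highest bin was 2.33 with the other denominator and 1.30 in UMIs per cell, against 2.79.

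With each library left out in turn, genes called ranged from 2571 to 5308 in all kept cells, 521 to 1260 with 0-5%, 217 to 544 with 5-10%, 61 to 340 with 10-20%, 128 to 1633 over 20% and 183 to 447 for the difference between bins. Members called ranged from 6 to 9, 3 to 6, 4 to 7, 0 to 4, 3 to 4 and 1 to 4 in the same order. The lowest counts came without H2-O KO replicate 1 in all kept cells, H2-O WT replicate 1 with 0-5%, with 5-10% and for the difference between bins, H2-O WT replicate 3 with 10-20% and H2-O WT replicate 1 or 2 over 20%.

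No value that changed sign was called in the reported fit. The log2 fold change of Lars2 with 10-20% was 0.0094 with no low-count filter, 0.022 without TMM, 0.13 with at least 1000 UMIs, 0.030 without other-lineage cells and -0.14 to 0.13 with libraries left out. That of Kcnq1ot1 over 20% was 0.0049 by DESeq2, 0.014 without TMM, 0.0047 with the other denominator and -0.051 to 0.059 with libraries left out. With libraries left out, Neat1 ranged from -0.19 to 0.0070 with 0-5% and -0.21 to 0.077 with 10-20%, and Gm26917 from -1.70 to 0.23 with 10-20% and -0.34 to 0.65 over 20%. The difference between bins ranged from -0.35 to 0.0045 for Gm16565 with libraries left out and was 0.072 for Gm47283 with a mitochondrial limit of 10%. The log2 ratio of the lowest to the highest bin was -0.42 with the other denominator, -1.45 in UMIs per cell, -0.072 with at least 1000 UMIs and -0.19 to 0.45 with libraries left out for Gm42418, and -0.12 and -1.15 under the first pair of these for Gm47283.

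Deviations of same-numbered libraries from their genotype means correlated at -0.125, 0.148 and 0.367. H2-O KO replicate 1 correlated best with H2-O WT replicate 2 (0.373), and H2-O KO replicates 2 and 3 with their own number. Deviations within 3 libraries depend on each other, so these values cannot decide whether the numbers pair the libraries. With the replicate block, 1917 genes and 6 members were called over 20%, the call of Kcnq1ot1 with 10-20% was lost (-0.49, adjusted p = 0.0645 by edgeR), Lars2 with 10-20% was 0.011 and Kcnq1ot1 over 20% was 0.0039. Gm42418 was called with the block in all 4 bins (adjusted p = 0.000252 with 0-5% and 6.54e-28 with 5-10%), Lars2 with 5-10% (-0.98) and over 20% (0.19), Gm26917 with 10-20% (-0.74), Malat1 with 5-10% (-0.51) and 2010016I18Rik over 20% (-0.28). In CPM the genotypes overlapped for Gm42418 in each of these bins, though overlap takes no account of the block. Each H2-O KO library stood below the H2-O WT library of the same number in each bin. Whether the numbers mark pairs is not given in the sources used here, so the p-values with the block are not read as results. With no low-count filter Gm42418 and Lars2 were also called with 5-10% (-1.27 and -0.68), Gm42418 and Gm26917 with 10-20% (-1.19 and -0.83) and Kcnq1ot1 with 0-5% (-0.44). Genes with few UMIs in the low bins, such as Gm47283 with 1 UMI in 2 of the libraries with 0-5%, are limited by depth.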
